A study of Homo sapiens with 6 samples.

Results

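Glycolysis and pyruvate handling genes were followed by symbol through the gene table of a MALAT1 knockdown experiment. The list held 35 genes, picked by name from the pathway with earlier results of these data known. All 35 were found among the 46427 genes of the table. RNA-seq had been performed on cultures of the non-small cell lung cancer (NSCLC) lines H460, H1299 and A549, which grow as tumour cells in culture without stroma. In each line, 1 library came from cells labelled as receiving no treatment and 1 from cells transfected with si-MALAT1, a small interfering RNA against the nuclear long non-coding RNA MALAT1. The study's methods speak of negative controls and also of si-Control, so whether the control cultures had been transfected is not known here, and transfection cannot be told apart from the knockdown. Only 1 siRNA label was used, and a line was 1 pair of cultures.

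Glycolysis turns glucose into pyruvate in the cytosol, and tumour cells often run it at a high rate and export the product as lactate. Glucose enters through transporters of the SLC2A family, is phosphorylated by hexokinase, split by aldolase, and oxidised by GAPDH. Phosphoglycerate kinase, phosphoglycerate mutase, enolase and pyruvate kinase complete the lower part, after which pyruvate is reduced to lactate or is oxidised in mitochondria by the pyruvate dehydrogenase (PDH) complex, which PDH kinases switch off and PDH phosphatases switch on.

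Library totals ranged from 42506818 to 68515992 read counts. MALAT1 itself was left at 20.1% of its control level in H460, 12.9% in H1299 and 13.9% in A549. Blood and endothelial markers were at or near 0 in all 6 libraries. Of the epithelial markers, EPCAM and CDH1 were under 1 TPM (the deposited level scaled for transcript length and depth) in H460 and H1299, while KRT8 and KRT18 were present in each library. The summed TPM of the 6 epithelial markers was 5509 in the A549 control and 2454 after si-MALAT1, while it was 1246 and 896 in H460 and 481 and 459 in H1299. In A549 the lower sum came from KRT8, KRT18 and KRT7. EPCAM, KRT19 and CDH1 were higher there after si-MALAT1, at 3.61 and 8.04, 0.89 and 2.23, and 27.8 and 39.4 TPM. The part of these marker differences in the A549 results below was not tested. CDKN2A, which is deleted in H460 and A549, had 0 reads in both lines and 2938 and 2679 in H1299.

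The gene that the list was built around is PGAM1, phosphoglycerate mutase 1, which moves the phosphate of 3-phosphoglycerate to position 2. It lies on the plus strand of chromosome 10 (GRCh38, chr10:97426191-97433444, Gene ID 5223). PGAM4, on the minus strand of chromosome X (chrX:77967949-77969638, Gene ID 441531), is a copy with 1 exon. The study picked both genes from these same libraries, so their place among the members is a description. An earlier search over these data had brought up the 7-base words TGAATCA and ATGAATC in 3′ UTRs, and the sites are shown here because the same 23 bases stand in both mutase genes. The word is in capitals, each stretch lies in the 3′ UTR of the GENCODE transcript on GRCh38, and the sequence is that of the RNA strand written as DNA.
PGAM1, chr10:97433323-97433345, plus strand: ctgatttcTGAATCAtgttctag
PGAM4, chrX:77968056-77968078, minus strand: ctgatttcTGAATCAtgttctag
ENO2, chr12:6923678-6923697, plus strand: ttaaagtcTGAATCAgtgca
PFKFB2, chr1:207074032-207074054, plus strand: aggattgtTGAATCAtaaacatg
DLAT, chr11:112063874-112063896, plus strand: tacttaaaATGAATCtgaccagt
PFKFB3, chr10:6234918-6234940, plus strand: gaggtaacATGAATCtggacagg

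Fold changes within a cell line were taken on read counts scaled with RLE size factors, as log2 of the scaled count plus 1, si-MALAT1 minus control. With 1 library per line and condition there was no replicate check within a line, and the 95% Clopper-Pearson intervals on the split of reads cover counting error only. In bulk RNA, fewer cells of a kind and less RNA per cell cannot be told apart. A change of at least 1.5-fold, or 0.58 on the log2 scale, was counted as called.

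PGAM1 was lower after si-MALAT1 in each of the 3 lines. The H460 control held 19816 PGAM1 reads and the knockdown library 8896, and the log2 fold change was -1.07 (-1.11 to -1.04). H1299 held 15916 and 6035 reads, with a log2 fold change of -1.27 (-1.31 to -1.23). A549 held 15221 and 5251 reads, with a log2 fold change of -1.68 (-1.73 to -1.63). The 3 control libraries, at 153 to 242 TPM, did not overlap the 3 si-MALAT1 libraries, at 66.5 to 81.5 TPM. The mean log2 fold change was -1.34 ± 0.31 (SD between lines, n = 3). PGAM4 had 426 and 151 reads for H460, 360 and 121 for H1299 and 317 and 107 for A549. It was lower in each line too, with log2 fold changes of -1.41, -1.43 and -1.70 and a mean of -1.52 ± 0.16 (SD, n = 3). Of all stretches of 100 bases in PGAM4 RNA, 18.6% stand unaltered in PGAM1, and 46.2% of those of PGAM1 occur in PGAM4 or in either of 2 genes that GENCODE lists without a symbol. The counts of both mutase genes are therefore uncertain, and PGAM4 stood at 1.70% to 2.26% of the PGAM1 reads in every library.

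The genes on either side of PGAM1 in the pathway had smaller differences. PGK1, phosphoglycerate kinase, which makes the substrate of PGAM1, had log2 fold changes of -0.07, 0.10 and -0.11 in H460, H1299 and A549. ENO1, the main enolase, which takes the product of PGAM1, had -0.06, -0.25 and -0.41. Set against PGK1 in the same libraries, which needs no scaling between libraries, PGAM1 was lower, with a log2 difference of -1.32 ± 0.29 (SD, n = 3), and set against ENO1 the difference was -1.10 ± 0.14. In TPM, PGAM1 stood at 0.801 of PGK1 in the control and 0.399 of it in the knockdown library of H460, at 1.05 and 0.406 in H1299, and at 0.954 and 0.321 in A549. In the controls PGAM1 was thus near the level of PGK1, and in the si-MALAT1 libraries it was far under it in every line. PGAM1 was also ranked by TPM among 10 genes, with GPI, ALDOA, TPI1, GAPDH, PGK1, ENO1, PKM, LDHA and LDHB. It ranked 8 or 9 in the control libraries and 10 in all 3 si-MALAT1 libraries. These 10 genes left out phosphofructokinase and the minor isozymes. PFKL, at 27.3 to 35.5 TPM, and PFKM, at 51.1 to 77.7 TPM, lay under PGAM1 in each si-MALAT1 library, and PFKP did in H1299 only.

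**Figure D1:**
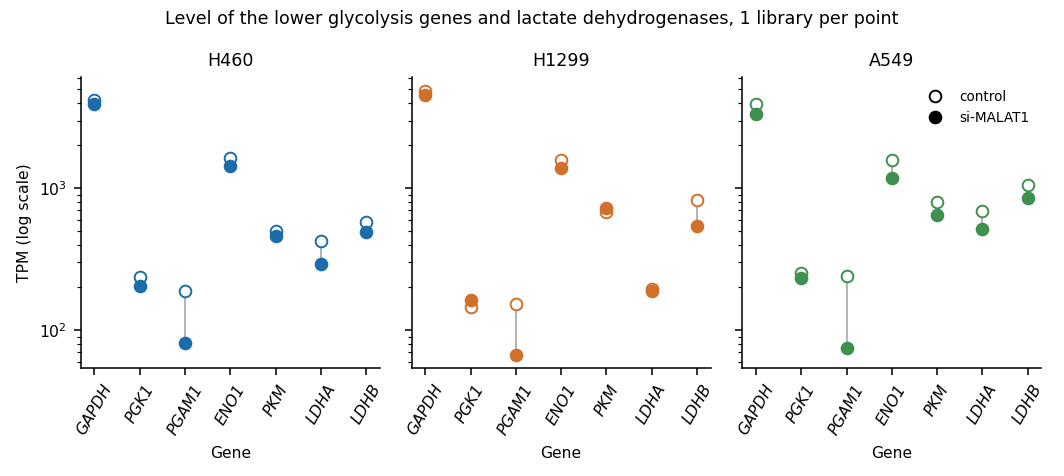
TPM on a log axis for GAPDH, PGK1, PGAM1, ENO1, PKM, LDHA and LDHB in H460, H1299 and A549, with open circles for the control and filled circles for the si-MALAT1 library of a line. PGAM1 lies between 153 and 242 TPM in the controls and between 66.5 and 81.5 TPM after si-MALAT1, while the genes beside it differ less.

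Of all 35 members, 3 were at least 1.5-fold lower in all 3 lines, where 1.28% of the 17834 genes with reads in each library were, and 0 were at least 1.5-fold higher in all 3, where 1.19% of genes were. The 3 were PGAM4, PGAM1 and HK2. The study had picked PGAM1 and PGAM4 from these same libraries, and they share sequence. The count of members beside the share of all genes is therefore a description. PGAM4 and PGAM1 ranked 1 and 2 by the size of the fall in each of the 3 lines, and HK2 ranked 3 over the mean of the lines. Another 9 members passed 1.5-fold in a single line, 3 of them lower and 6 higher, and 23 passed in no line.

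HK2, hexokinase 2, an inducible isozyme that carries out the first phosphorylation of glucose, was lower by a like amount in every line. H460 gave 3017 HK2 reads in the control and 1512 in the knockdown library, H1299 gave 1342 and 655, and A549 gave 61 and 37. In that order the log2 fold changes were -0.91 (-1.005 to -0.83), -0.90 (-1.04 to -0.77) and -0.85 (-1.50 to -0.25), with a mean of -0.89 ± 0.03 (SD, n = 3). The gene lies on the plus strand of chromosome 2 (chr2:74834126-74893359, Gene ID 3099), and 2.80% of the 100-base windows of its transcript are shared with the copy HK2P1. A549 contributed few reads, and its interval also holds changes smaller than 1.5-fold. The 3′ UTR of HK2 held neither of the words above, over 2418 bases.

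Across the 3 lines, the members were tested with edgeR's quasi-likelihood test on read counts, blocked by cell line, with Benjamini-Hochberg adjustment over 19122 genes. No member passed an adjusted p of 0.05 by this test, 0 lower where 0.00523% of genes were called lower, and 0 higher where 0% of genes were. The smallest adjusted p among the members was 0.0734, shared by PGAM1, PGAM4 and HK2. At an unadjusted p under 0.05, 10 members passed, 7 lower and 3 higher, or 28.6% of the members beside 15.0% of all genes. DESeq2's Wald test, the test that the methods name, called 4 members lower beside 3.1% of genes, and 0 higher beside 2.98%. Its adjusted p was 1.41e-13 for PGAM1, 8.32e-07 for PGAM4, 1.96e-05 for HK2 and 0.0124 for SLC2A1. The newer quasi-likelihood estimate of edgeR, which was added after the data had been seen, called 3 members lower beside 0.868% of genes and 0 higher beside 0.424%, with an adjusted p of 0.0196 for PGAM1, 0.0240 for PGAM4 and 0.0333 for HK2. The call on these genes therefore depended on the test, while the sign was the same in these 3 fits. With H460 left out, edgeR called PGAM1 lower, with an adjusted p of 0.0230. As PGAM1 and PGAM4 had been picked from these libraries, their p-values and the member counts that include them are a description.

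The members as a group lay near the other genes. Their median log2 fold change was -0.000328 in H460, 0.04 in H1299 and -0.11 in A549, beside 0.02, 0.02 and 0.01 over all genes. In H460, 3 members were at least 1.5-fold lower and 3 higher, beside 10.3% and 9.5% of all genes. In H1299, 4 were lower and 3 higher, beside 11.4% and 11.7%. In A549, 5 were lower and 0 higher, beside 11.4% and 11.5%. At any size, 10 members were lower in all 3 lines and 9 were higher, beside 18.8% and 21.4% of genes, and the sign differed between lines for 16. Apart from PGAM1, PGAM4 and HK2, the mean log2 fold change of a member lay between -0.46 for SLC2A1 and 0.45 for PFKFB4, and 19 of these 32 members had a mean within 0.25 of 0.

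**Figure D2:**
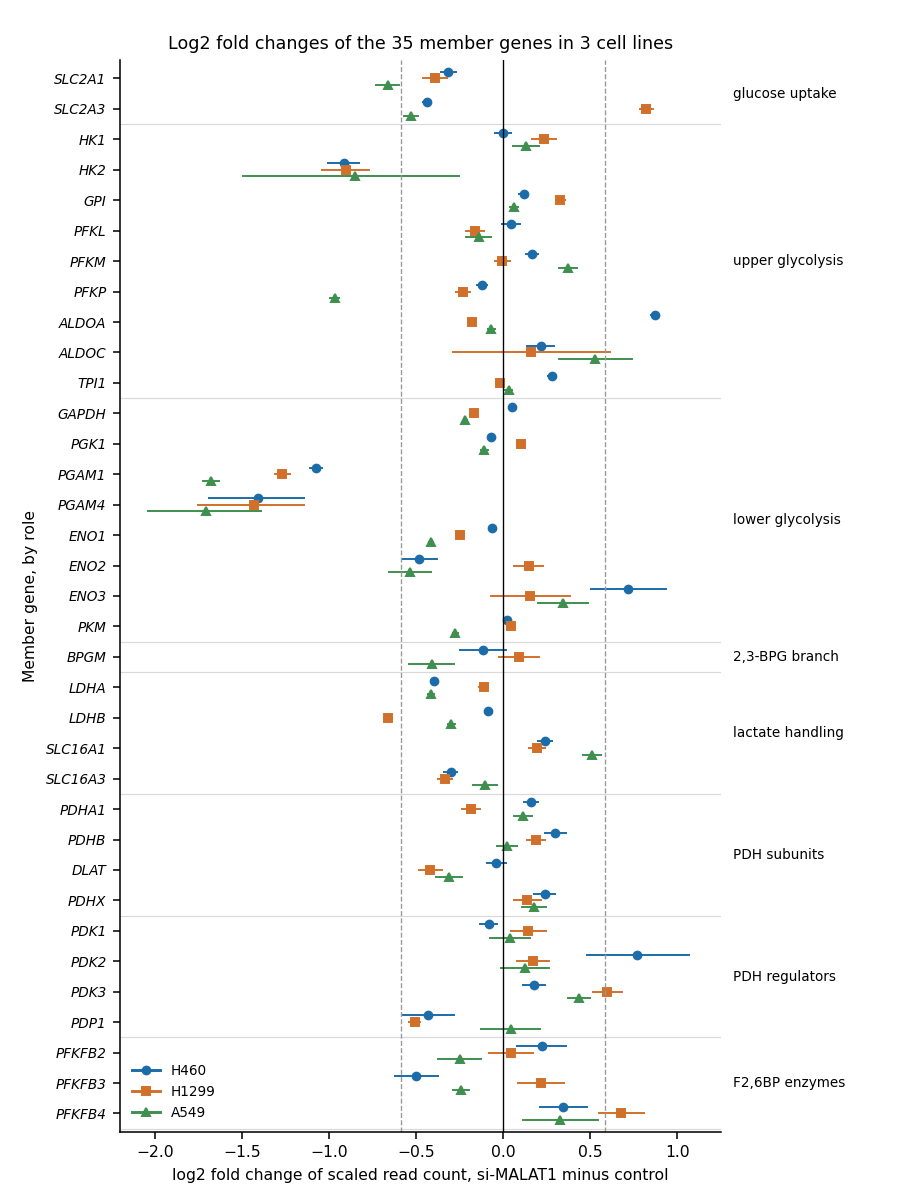
Log2 fold change of the scaled read count (si-MALAT1 minus control) on the horizontal axis for the 35 members, grouped by role, with circles for H460, squares for H1299 and triangles for A549. Bars are 95% intervals for counting error and dashed lines mark 1.5-fold. PGAM1, PGAM4 and HK2 lie left of the dashed line in all 3 lines, and the other members scatter around 0.

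Of the glucose transporters, SLC2A1 was lower in each line and SLC2A3 differed in direction between lines. SLC2A1, which encodes the transporter GLUT1, had TPM of 51.6 and 37.7 for H460, 20.3 and 16.2 for H1299 and 35.3 and 22.1 for A549, control first. Its log2 fold changes were -0.32, -0.39 and -0.66, the fourth largest fall by mean at -0.46 ± 0.18 (SD, n = 3), with adjusted p = 0.166 in edgeR. SLC2A3, which encodes GLUT3 and was the more abundant of the pair, was at 188 and 127 TPM for H460, 42.5 and 78.7 for H1299 and 78.8 and 54.1 for A549. On the log2 scale the fold changes were -0.44, 0.82 and -0.53, and 7.22% of its transcript's windows are shared with SLC2A14. The summed TPM of both transporters was accordingly lower after si-MALAT1 in H460 and A549, at 0.685 and 0.668 of the control, and higher in H1299, at 1.51 of the control.

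In upper glycolysis, from hexokinase to triosephosphate isomerase, 9 members were measured and HK2 alone passed 1.5-fold in more than 1 line. The most abundant members were ALDOA, aldolase A, at 247 to 659 TPM, and TPI1, triosephosphate isomerase, at 317 to 644 TPM. ALDOA was higher in H460, with 21464 and 37124 reads and a log2 fold change of 0.87 (0.85 to 0.90), and had -0.18 in H1299 and -0.07 in A549. In GENCODE, 89.2% of the 100-base windows of the ALDOA transcript also occur in another gene that has no symbol there, so its counts are uncertain. PFKP, the platelet form of phosphofructokinase, stood at 318 TPM in the A549 control and 161 TPM in the knockdown library, where the log2 fold change was -0.97 (-0.996 to -0.94). In H460 and H1299 its log2 fold changes were -0.12 and -0.23. PFKM, the muscle form, had 0.17, -0.00 and 0.37, and PFKL, the liver form, 0.05, -0.16 and -0.14. HK1, GPI and TPI1 ranged from -0.02 to 0.33 over the 3 lines.

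Lower glycolysis held the most abundant members. GAPDH, glyceraldehyde-3-phosphate dehydrogenase, ranged from 3353 to 4866 TPM, and its log2 fold changes were 0.05, -0.17 and -0.22. ENO1 ranged from 1178 to 1638 TPM and PKM, pyruvate kinase, from 463 to 794 TPM. The PKM log2 fold changes were 0.02, 0.04 and -0.27. Of the minor enolases, ENO2 was at -0.48, 0.15 and -0.53. ENO3, the muscle form, had 296 and 461 reads for H460, 324 and 330 for H1299 and 694 and 973 for A549. It was higher in each line, at 0.72, 0.16 and 0.34. BPGM, which diverts 1,3-bisphosphoglycerate into 2,3-bisphosphoglycerate and can also act as a mutase, had 8.40 to 15.9 TPM and log2 fold changes of -0.12, 0.09 and -0.41. Thus no other gene with phosphoglycerate mutase activity in the list was higher after si-MALAT1 by 1.5-fold. PGAM2, the muscle mutase, had 0 or 1 read in each library.

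Among the genes of lactate handling, both dehydrogenase subunits and the exporter were lower and the transporter SLC16A1 was higher. LDHA and LDHB, the lactate dehydrogenase subunits, were lower in all 3 lines, with log2 fold changes of -0.40, -0.11 and -0.42 for LDHA and -0.09, -0.66 and -0.30 for LDHB. Only LDHB in H1299 passed 1.5-fold, with 61937 and 35823 reads, and 66.4% of its transcript's windows occur in an unnamed GENCODE gene. The edgeR adjusted p was 0.287 for LDHA and 0.305 for LDHB. SLC16A1, which encodes the lactate transporter MCT1, was at 43.5 and 46.7 TPM for H460, 37.5 and 44.9 for H1299 and 34.5 and 48.8 for A549, with log2 fold changes of 0.24, 0.19 and 0.51. SLC16A3, which encodes the exporter MCT4, had -0.30, -0.33 and -0.10. The log2 difference between these transporters was 0.54 in H460, 0.53 in H1299 and 0.61 in A549, a mean of 0.56 ± 0.05 (SD, n = 3), although neither gene passed 1.5-fold in a line.

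The PDH subunits in the list differed by less than 1.5-fold between conditions. PDHA1 and PDHB, the subunits of its first enzyme, PDHX, which tethers the third, and DLAT, the second enzyme, had log2 fold changes from -0.42 for DLAT in H1299 to 0.30 for PDHB in H460. PDHX was higher in all 3 lines, by 0.24, 0.14 and 0.18, and the summed TPM of the 4 subunit genes was 1.04, 1.07 and 1.02 of the control in H460, H1299 and A549. DLD, the third enzyme of the complex, was not in the list and was higher at 0.35, 0.39 and 0.46, with an adjusted p of 0.00561 in DESeq2 and 0.192 in edgeR. Of the kinases, PDK2 and PDK3 each passed 1.5-fold in 1 line. PDK3 gave 3798 and 4055 reads for H460, 1963 and 2714 for H1299 and 3345 and 5006 for A549. On the log2 scale the fold changes were 0.18, 0.60 and 0.44, with a mean of 0.40 ± 0.21 (SD, n = 3) and adjusted p = 0.241 in edgeR. PDK2 had 0.77, 0.17 and 0.13, the first of which rests on 158 and 255 reads in H460. PDK1 stayed between -0.08 and 0.15. PDP1, the phosphatase that reactivates the complex, had -0.43, -0.51 and 0.04.

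The bifunctional enzymes that set fructose 2,6-bisphosphate, an activator of phosphofructokinase, were scarce except for PFKFB3 in A549. PFKFB4 had the highest mean log2 fold change of all 35 members, at 0.35, 0.68 and 0.33 with a mean of 0.45 ± 0.20 (SD, n = 3). Its reads were 840 and 1009 for H460, 835 and 1222 for H1299 and 308 and 427 for A549, and its adjusted p was 0.244 in edgeR and 0.115 in DESeq2. PFKFB3 had -0.50, 0.22 and -0.24, and PFKFB2 had 0.22, 0.05 and -0.25. After PFKFB4 the members with the highest means were ENO3 at 0.41 ± 0.29, PDK3, PDK2 at 0.36 ± 0.36 and SLC16A1 at 0.31 ± 0.17 (SD, n = 3), and none of these 5 had an adjusted p under 0.05 in any of the 3 fits named above.

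Isozyme shares were taken as a percentage of the summed TPM of the members of a family that were in the list, which needs no scaling between libraries. HK2 made up 20.1% of HK1 plus HK2 in the H460 control and 11.8% in the knockdown library. The shares were 21.1% and 11.1% in H1299, and 1.38% and 0.67% in A549. Most hexokinase RNA of this pair was thus HK1 in all 6 libraries, and its share was higher after si-MALAT1. The SLC16A1 share of SLC16A1 plus SLC16A3 was 31.1% and 40.3% for H460, 30.4% and 38.5% for H1299 and 44.9% and 53.7% for A549, higher after si-MALAT1 in each line. The PDK3 share of PDK1, PDK2 and PDK3 was higher in each line too, at 18.8% and 24.4%, 17.1% and 22.4%, and 36.6% and 43.1%. This did not hold with PDK4 in the sum, where the PDK3 share was lower in H460, at 9.86% and 7.78%, and was 16.1% and 20.2% in H1299 and 4.49% and 4.69% in A549. PFKFB4 made up 34.5% of PFKFB2, PFKFB3 and PFKFB4 in the H460 control and 44.2% in the knockdown library, 38.4% and 47.6% in H1299, but only 4.21% and 5.83% in A549. The PFKP share of the phosphofructokinases was lower in each line, with A549 at 80.6% and 65.9%, H460 at 53.4% and 49.1% and H1299 at 44.05% and 41.8%. The LDHA share of LDHA plus LDHB had no common direction, at 42.4% and 37.3% for H460, 19.3% and 25.8% for H1299 and 39.5% and 37.8% for A549.

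**Figure D3:**
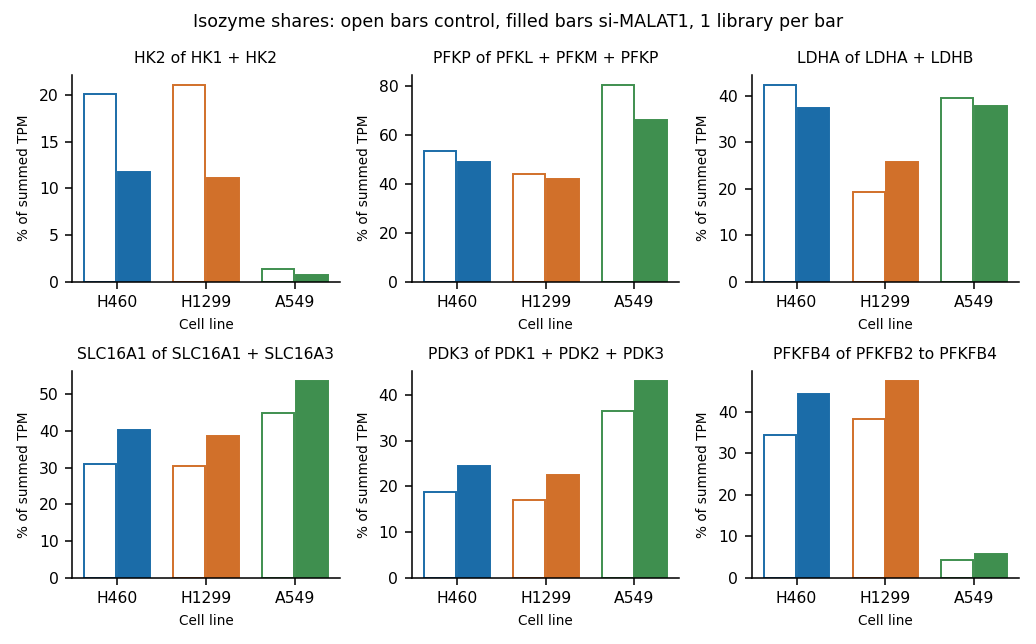
Share of an isozyme in the summed TPM of the family members named over each panel, in percent, for HK2, PFKP, LDHA, SLC16A1, PDK3 and PFKFB4 in each cell line, with open bars for the control and filled bars for the si-MALAT1 library. The HK2 share is lower after si-MALAT1 in all 3 lines, at 11.8%, 11.1% and 0.67%, and the SLC16A1 share is higher in all 3. The PDK3 panel leaves out PDK4, with which the share is lower after si-MALAT1 in H460.

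The members together made up 0.855% to 1.10% of all TPM. Their summed TPM was 9338 and 8546 for H460, 10164 and 9385 for H1299 and 10977 and 9072 for A549, control first, and GAPDH was the largest single part of it in each library. Lower glycolysis had 0.906, 0.929 and 0.808 of its control sum in the si-MALAT1 libraries of H460, H1299 and A549, while upper glycolysis had 1.17, 1.009 and 0.901. The H460 upper sum was 982 and 1145 TPM, of which ALDOA, whose counts are uncertain, was 247 and 411. The higher upper sum in H460 thus rested on ALDOA. In H460, values on the log2(TPM + 1) scale were shifted by -0.13 over all genes against the scaled read counts, and 4 members had the opposite sign there, as 2 did in H1299 and 1 in A549.

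More members were called between cell lines than between conditions. Each pair of lines was compared with edgeR's quasi-likelihood test in the same fit, over 2 libraries per line, 1 control and 1 si-MALAT1. Of the 35 members, 19 differed between H1299 and H460 beside 52.6% of all genes, 18 between A549 and H460 beside 38.2%, and 19 between A549 and H1299 beside 48.9%. The 3 contrasts share libraries. Without either A549 library, fewer members were called in both contrasts of A549. The share of all genes called was not counted in those fits, so a change of the members cannot be told from one of the whole table. In the first contrast 17 of the 19 were lower in H1299 than in H460 and 2 were higher. Among the 17 were both glucose transporters, both hexokinases, LDHA and PGAM1. The directions were not counted over all genes, so this split has no background beside it.

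ALDOC, aldolase C, was at 27.5 and 29.1 TPM for H460, 0.89 and 0.98 for H1299 and 5.34 and 7.66 for A549. The log2 difference of H1299 from H460 was -5.21 (edgeR, adjusted p = 1.70e-05). PDP1 was at 84.5 and 62.3 TPM in H1299 and at 2.36 to 3.71 TPM in the other lines, a log2 difference of 4.30 from H460 (edgeR, adjusted p = 2.75e-05) and of -4.22 for A549 minus H1299. HK2 was at 9.19 and 4.45 TPM for H460, 4.16 and 2.40 for H1299 and 0.30 and 0.16 for A549, and the log2 difference of A549 from H460 was -5.09 (edgeR, adjusted p = 2.92e-05). A549 thus had the lowest HK2 of the 3 lines in both conditions. HKDC1, a further hexokinase that was not in the list, had 2800 and 1731 reads in A549, 64 and 39 in H460 and at most 2 in H1299.

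PFKFB3 was highest in A549, at 52.1 and 43.9 TPM beside 3.56 to 5.66 TPM in the other lines, with a log2 difference of 3.19 from H460 and 3.65 from H1299. PDK2 was lowest in H460, at 0.85 and 1.57 TPM, beside 10.5 and 11.9 in H1299 and 7.55 and 7.82 in A549, log2 differences of 2.99 and 2.45 from H460. PDK1 was the reverse, at 21.9 and 16.6 TPM in H460 and 4.20 to 6.61 TPM elsewhere, a log2 difference of -2.25 for H1299 minus H460. Of the 3 PDH kinases in the list, PDK1 thus had the most RNA in H460 and PDK2 in H1299. Counted with PDK4, a kinase outside the list, PDK1 made up 41.1% and 22.0% of the 4 kinases in H460 and PDK4 47.5% and 68.1%, while PDK2 made up 52.3% and 51.6% in H1299. In A549 PDK4 made up 87.7% and 89.1%. The members named in these contrasts were chosen for the largest differences in these same libraries. That the 2 libraries of a line did not overlap those of the line they were contrasted with is therefore a description.

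**Figure D4:**
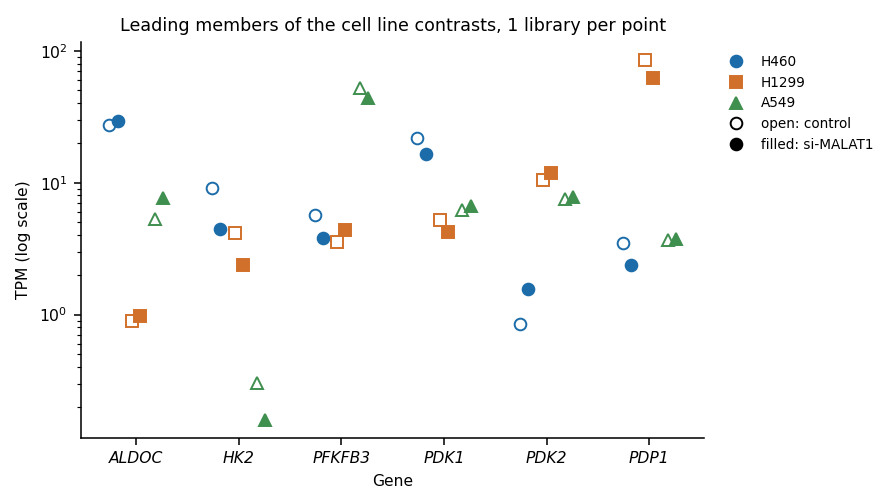
TPM on a log axis for ALDOC, HK2, PFKFB3, PDK1, PDK2 and PDP1, with circles for H460, squares for H1299 and triangles for A549, open for the control and filled for the si-MALAT1 library. ALDOC is lowest in H1299, HK2 lowest in A549, PFKFB3 highest in A549 and PDP1 highest in H1299 in both conditions.

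The words TGAATCA and ATGAATC occurred in the 3′ UTR of 7 of the 35 members, 20.0%, beside 17.7% of 12567 genes. The 7 were PGAM1, PGAM4, ENO2, DLAT, PFKFB2, PFKFB3 and PDP1, each with 1 site, and 6 of the sites are printed above. The median log2 fold change of the 7 was -0.48 in H460, -0.42 in H1299 and -0.31 in A549, whereas that of the 28 members without a word was 0.05, 0.07 and -0.02. Over all genes the medians were -0.12, -0.04 and -0.13 with a word and 0.05, 0.05 and 0.03 without. PFKFB2 carries a word and had 0.22, 0.05 and -0.25, and ENO2 had 0.15 in H1299. In all 3 lines, 3 of the 7 members with a word and 7 of the 28 without were lower. The median 3′ UTR was 1869 bases for the 7, 925 for all 35 members and 1331 for the 12567 genes, and length was not adjusted for. PGAM1 and its copy PGAM4 were counted as separate genes. As the words came from these data, the medians of the fold changes are a description.

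Other genes came from lists drawn up by name, with 70 tested, 13 of them pseudogene copies. By edgeR's quasi-likelihood test 0 had an adjusted p under 0.05. At an unadjusted p under 0.05 there were 12, beside 15.0% of all genes. DESeq2 called 7 of the 70, each named here with its value, where it called 3.1% of all genes lower and 2.98% higher. The newer edgeR estimate called TALDO1, SUCLG2 and TXNIP, where it called 0.868% of genes lower and 0.424% higher. Of 27 further family members, 12 had reads in each library, and DESeq2 called 3 higher and 0 lower. These were PDK4, a PDH kinase, at 1.15, 0.95 and 0.43, DLD, and MPC2, a subunit of the mitochondrial pyruvate carrier, at 0.57, 0.32 and 0.57, with DESeq2 adjusted p of 0.000209 for PDK4 and 0.00486 for MPC2. PDK4 ranged from 1.13 TPM in the H1299 control to 208 TPM in A549 after si-MALAT1. Of the 7 genes of the pentose phosphate pathway, TALDO1, transaldolase, was lower in all 3 lines, at -1.21, -1.48 and -2.05, with 16971 and 6932 reads for H460, 5242 and 1718 for H1299 and 12854 and 3434 for A549. Its adjusted p was 0.0734 in edgeR and 4.07e-13 in DESeq2, and no other gene of that list was called by either test or passed 1.5-fold in a line.

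Of the 16 genes of the tricarboxylic acid cycle, SUCLG2, a succinyl-CoA ligase subunit, was lower at -0.64, -1.37 and -1.49, with adjusted p = 0.0819 in edgeR and 2.51e-06 in DESeq2, and no other was called. The serine branch leaves glycolysis at 3-phosphoglycerate, the substrate of PGAM1, and 3 of its 5 genes were at least 1.5-fold lower in H1299, with PHGDH at -1.23, PSAT1 at -0.9999 and PSPH at -0.62. PSPH was at -0.69 in A549, where PHGDH was at -0.04, and 0 of the 5 genes passed 1.5-fold in H460 or were called by any of the 3 fits. Of 8 gluconeogenesis genes, 3 had reads in each library and 0 were called by any of the 3 fits. In H1299, PC at 0.88 and PCK2 at -0.99 passed 1.5-fold. Of 10 regulators, HIF1A was at -0.13, 0.25 and -0.04 and MYC at -0.18, -0.51 and -0.59, the latter with a DESeq2 adjusted p of 0.0339. TXNIP, an inhibitor of glucose uptake, had 0 reads in both H1299 libraries. It had 16330 and 32213 reads in H460 and 89 and 195 in A549, log2 fold changes of 1.06 (1.03 to 1.09) and 0.98 (0.62 to 1.36), with a DESeq2 adjusted p of 6.53e-05 and an edgeR adjusted p of 0.0966. Of 78 pseudogene copies of glycolytic genes, 28 had no read, 13 had reads in each library, and 0 were called by any of the 3 fits. Within a line, up to 3 of the 13 were at least 1.5-fold lower and up to 2 higher.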

How the data were processed

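For each of 6 libraries the authors deposited read counts, FPKM and TPM per gene, made with StringTie on an NCBI annotation after trimming and alignment to hg38 (HISAT 2.1.0). The processing notes also name hg19 and StringTie 1.3.4b, which differs from the version in the paper. The deposited counts are whole numbers and not normalized, the deposited FPKM and TPM were scaled by the authors for length and depth, and libraries were made with a stranded kit after removal of ribosomal RNA. Use of the strand in counting is not given in the sources used here. Another 18 columns of the table hold other samples and were not used.

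Samples were grouped by label into control and si-MALAT1 of a cell line, and the lines pair the libraries. Counts were tested with edgeR 4.0.16 (quasi-likelihood, TMM, filterByExpr, cell line as a block, 2 residual degrees of freedom) over all genes with Benjamini-Hochberg adjustment at 0.05, and DESeq2 1.42.0 was the alternative. Coordinates of genes came from the GRCh38 annotation that the authors deposited. The 3′ UTRs and the 100-base windows came from 1 GENCODE transcript per gene. The main edgeR fit was also run on simulated counts with the same change in every line. That setting differs from these data, so it does not show how the tests perform on them. A further check gene of the cell lines is not reported here. The p-values of the knockdown test measure the spread of the response between cell lines. The line contrasts use the same residual, with 1 control and 1 si-MALAT1 library per line and no replicate cultures of a condition. The members, lists and words were chosen with earlier results of these data known. Named with full values were PGAM1, PGAM4, members past 1.5-fold in at least 2 lines or past the test, the 5 highest and 5 lowest by mean, the most abundant of each step, and up to 4 leaders of each contrast of lines. Members past 1.5-fold in 1 line, HKDC1 and TXNIP were named after their values had been seen. Software was Python 3.11.15 (pandas 2.3.3, scipy 1.17.1, numpy 2.4.6, matplotlib 3.10.9) and R 4.3.3.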

Additional observations from a re-analysis of the deposited data

Results flagged for a closer look

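The SLC2A3 and ALDOA results differed in direction between cell lines, each with at least 1.5-fold in 1 line and a change beyond counting error the other way in another. For SLC2A3 the highest line, H1299, and the lowest, A549, lay 1.35 apart on the log2 scale. For ALDOA the highest line, H460, and the lowest, H1299, lay 1.05 apart. With 1 library per line and condition, neither difference between lines was tested. On the log2(TPM + 1) scale, as on scaled counts, SLC2A3 was higher in H1299 only, and ALDOA was higher in H460 only.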

How the results depend on the processing

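In the test across cell lines, 0 members were called lower, 4 in DESeq2, 3 with the newer edgeR estimate (an alternative chosen after seeing the data), and 0 to 1 when a line was left out, where the 1 was PGAM1 without H460 (adjusted p = 0.0230, and 0.0230 to 0.521 over the 3 fits, beside 0.0606 to 0.654 for PGAM4 and 0.131 to 0.604 for HK2). RLE in edgeR, no filter and a fit without the block gave 0. Without the pairing of lines, the block-free fit called 0 members lower and 0 higher. Leaving out a line turned ALDOA to -0.14 without H460 and SLC2A3 to 0.13 without H460 and 0.18 without A549. ALDOA ranged from -0.14 to 0.40 and SLC2A3 from -0.49 to 0.18. At a log2 threshold of 1.5, 0 members were lower and 0 higher in H460 and H1299, 2 were lower in A549 and 0 in all 3 lines. On log2(TPM + 1), 1 member was higher in H460 and PGAM1 ranked 1 in each line and over the mean, and it ranked 1 in A549 with a pseudocount of 10. It ranked 2 when any line was left out. With 1 library left out, 16 to 18 members differed between H1299 and H460, 9 to 23 between A549 and H460, and 9 to 20 between A549 and H1299. The lowest were without an A549 library, 9 without its control in both contrasts and 10 and 12 without its si-MALAT1 library, and the lone library of a line was assumed to vary like the others. With counts not divided by length, the change of the LDHA share reversed to 0.34 points. With further family members in the sum, an alternative chosen after seeing the data, the mean change of the PDK3 share was 0.73 points in place of 5.83. In all, 4 alternative values reversed, 21 moved, 8 of single genes passed the threshold where the main test did not, and 182 kept their direction and side of the threshold or, for counts, lay within 1.5 times the main count.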
